A study of Mus musculus with 4 samples.

Results

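The chromosome-wide contact map of TGFB1-treated mouse lung fibroblasts was compared with that of Control cells, with regard to compartments, the decay of contacts with distance, the share of contacts within chromosomes and insulation between neighbouring domains. The comparison used 2 of the 4 libraries of H3K4me3 HiChIP-seq in the series, those labelled as TGFB1-treated and as Control, and the other 2 libraries (miR-9-LOF and TGFB1+miR-9-LOF) served as a yardstick that shares no sample with it. HiChIP-seq joins DNA ends that lie close together in the nucleus and then enriches the joined pairs with an antibody, here against H3K4me3, a histone mark of active promoters.

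MLg is a mouse lung fibroblast line, and all libraries came from crosslinked MLg chromatin. By the protocol of the series, cells were transfected with 60 nM of an antagomiR against miR-9 or of a negative control and harvested after 24 h, and treated cells received TGFB1 (5 ng/ml) for the final 4 h. The label of the Control library reads WT and that of the TGFB1 library names the treatment alone, so that no antagomiR is named for either. The TGFB1+miR-9-LOF library had both TGFB1 and the miR-9 antagomiR, and the miR-9-LOF library had the antagomiR without TGFB1. There was 1 library per condition, hence no test between conditions was possible, every difference below is between 2 libraries, and every interval is a 95% interval that covers counting error only.

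In the nucleus of mammalian cells, gene-rich active chromatin (the A compartment) and gene-poor silent chromatin (the B compartment) contact their own kind more often than each other, and contacts become rarer as the distance along the chromosome grows. At shorter range, loop extrusion by cohesin is halted at sites bound by CTCF, which leaves domains whose boundaries few contacts cross. TGFB1 is the cytokine best known for turning lung fibroblasts into contractile, matrix-producing myofibroblasts, through SMAD proteins that enter the nucleus and act on promoters and enhancers.

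The precipitation acts most on promoters, therefore pairs were divided into those with both ends over 10 kb from the transcription start site (TSS) of every coding gene, called outside TSS, and those with at least 1 end within 10 kb, called near TSS. Pairs on autosomes whose ends both mapped with a quality of 30 or more numbered 13148144 in Control and 9349493 in TGFB1, against 12617104 in miR-9-LOF and 12058489 in TGFB1+miR-9-LOF. Intrachromosomal pairs at least 20 kb apart and outside TSS numbered 4730399, 3642539, 5259672 and 5033614 in the same order. The share of pair ends within 10 kb of a coding TSS was 26.7% in Control and 23.5% in TGFB1, against 21.3% in miR-9-LOF and 20.6% in TGFB1+miR-9-LOF, so that the libraries differed in their enrichment for promoters. Around the TSS of 12 fibroblast genes, the summed number of pair ends per 1000000 was 329.8 in Control and 283.7 in TGFB1, against 229.1 in miR-9-LOF and 213.1 in TGFB1+miR-9-LOF. The median over these genes was 20.0 in Control and 18.5 in TGFB1. Over all coding genes this median was 13.8 and 13.2. Single fibroblast genes ranged in Control from 8.90 at Col3a1 to 77.4 at Pdgfra, and epithelial genes from 4.22 at Nkx2-1 to 27.2 at Sftpc. In TGFB1 these 4 genes had 10.2, 59.0, 4.71 and 25.4. The macrophage gene Cd68 had 51.8 in Control and 37.0 in TGFB1, so that the ranges of the lists overlapped. The median was 13.6 in Control and 15.7 in TGFB1 over 8 epithelial genes, 12.7 and 14.4 over 5 endothelial genes, and 11.4 and 11.3 over 5 leukocyte genes, and no gene of these lists was at 0. The part of the promoter enrichment in the differences below was not tested beyond the division into pairs outside and near TSS.

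The question of the distance decay was whether TGFB1 treatment was accompanied by a shift between short-range and long-range contacts. Of the pairs outside TSS between 20 kb and 100 Mb apart, 29.3% were at least 2 Mb apart in Control and 28.6% in TGFB1, against 31.6% in miR-9-LOF and 31.0% in TGFB1+miR-9-LOF. TGFB1 had the lowest share of long pairs of the 4 libraries, and Control the next lowest. The log2 ratio of long to short pairs was -1.27 in Control and -1.32 in TGFB1, a difference of -0.048 (95% interval -0.052 to -0.043). Near TSS, this log2 ratio was -1.30 in Control and -1.34 in TGFB1, a difference of -0.043 (-0.048 to -0.037). The difference outside TSS had the same sign in 19 of 19 autosomes, from -0.070 on chromosome 5 to -0.025 on chromosome 10, and the interval was below 0 in 18 of them. Near TSS the sign was the same in 18 of 19 autosomes, with 0.0019 on chromosome 16 as the exception. In TGFB1+miR-9-LOF against miR-9-LOF the log2 ratio differed by -0.035 (-0.039 to -0.031) outside TSS and by -0.037 (-0.042 to -0.032) near TSS. Both comparisons of a TGFB1-treated with an untreated library therefore gave fewer long pairs, but the distance between miR-9-LOF and Control was larger, at 0.16 (0.15 to 0.16) outside TSS.

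The shift was not even along the distance axis. Outside TSS, the TGFB1 library had a larger share of pairs than Control between 200 kb and 2 Mb, 35.4% against 34.7%, and the log2 ratio of these shares was 0.031 (0.028 to 0.035). It had a smaller share between 2 and 20 Mb, 15.4% against 15.8%, with a log2 ratio of -0.035 (-0.040 to -0.030). Between 20 and 100 Mb the shares were 13.2% in TGFB1 and 13.5% in Control, and below 200 kb they were 36.0% and 36.1%, the latter with a log2 ratio of -0.0033 whose interval reached 0. In finer classes of distance, the ratio was highest at 640 to 905 kb, at 0.041 (0.032 to 0.050), and lowest at 10240 to 14482 kb, at -0.071 (-0.083 to -0.058). Above 57926 kb the intervals of both classes contained 0. Near TSS the curve had the same form, with its highest value of 0.050 at 453 to 640 kb and its lowest of -0.068 at 10240 to 14482 kb. In TGFB1+miR-9-LOF against miR-9-LOF the form was different, as the plot of the ratio by distance shows. There the log2 ratio was 0.034 (0.031 to 0.037) below 200 kb and -0.011 (-0.014 to -0.0084) between 200 kb and 2 Mb. Thus the excess at 200 kb to 2 Mb was not present in the comparison with the antagomiR. The slope of contact frequency on distance outside TSS, both on log scales, was -1.40 in both Control and TGFB1 between 200 kb and 2 Mb. Between 2 and 20 Mb it was steeper in TGFB1, with -0.88 in Control and -0.91 in TGFB1. It was less steep in TGFB1 between 20 and 100 Mb, with -0.89 in Control and -0.86 in TGFB1, and below 200 kb, with -0.80 and -0.79.

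**Figure D1:**
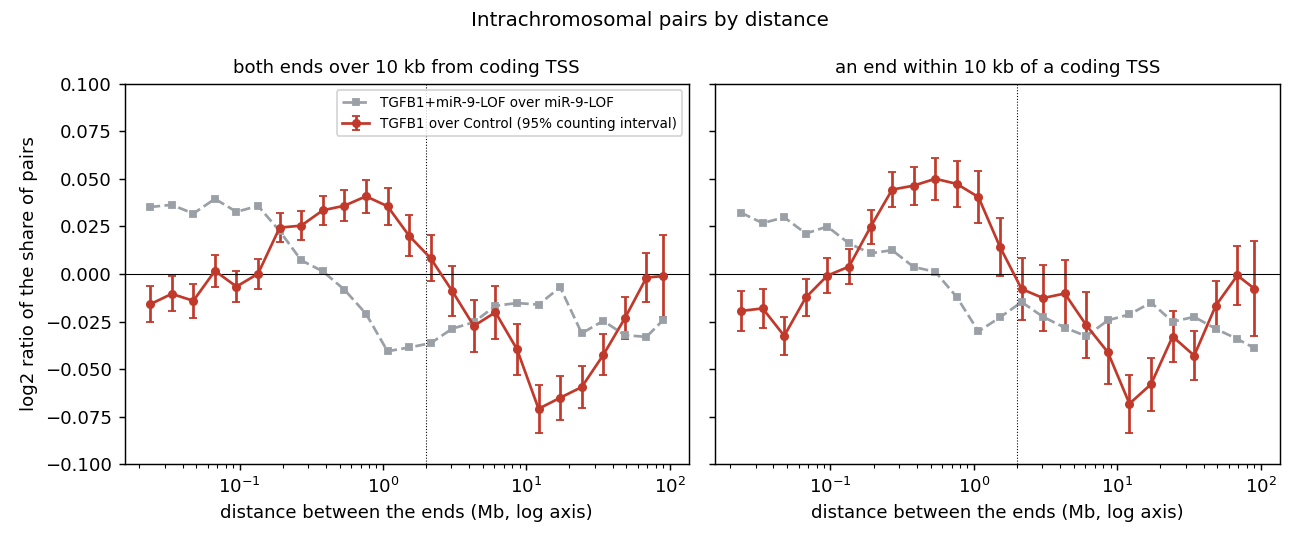
Log2 ratio of the share of intrachromosomal pairs in each distance class against the distance between the ends in Mb on a log axis, for pairs outside TSS (left) and near TSS (right). Red points with 95% counting intervals show TGFB1 over Control, which lies above 0 between about 200 kb and 2 Mb and reaches -0.071 at 10240 to 14482 kb outside TSS, grey squares show TGFB1+miR-9-LOF over miR-9-LOF, and the dotted line marks 2 Mb.

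The lower share of long pairs was seen within and between compartments. When pairs outside TSS were divided by the compartment of their ends, taken from the other 2 libraries, the log2 ratio of long to short pairs differed between TGFB1 and Control by -0.028 (-0.035 to -0.021) for pairs within A, by -0.063 (-0.072 to -0.054) for pairs between A and B and by -0.078 (-0.085 to -0.070) for pairs within B. In TGFB1+miR-9-LOF against miR-9-LOF the order was different, with -0.054 within A, -0.016 between A and B and -0.015 within B. Pairs within A made up 46.5% of these pairs in Control and 46.1% in TGFB1, and pairs within B 35.1% and 35.5%.

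Contacts within chromosomes were next compared with contacts between them. Outside TSS, intrachromosomal pairs at least 20 kb apart made up 80.8% of these and the interchromosomal pairs in Control and 82.5% in TGFB1, against 79.9% in miR-9-LOF and 78.7% in TGFB1+miR-9-LOF. TGFB1 had the highest share of the 4 libraries and exceeded Control by 1.65 percentage points (1.60 to 1.69). Near TSS, the share was 77.5% in Control and 79.5% in TGFB1, a difference of 2.00 points (1.94 to 2.06). Counting for each autosome the pairs with an end on it, the share was higher in TGFB1 in 19 of 19 autosomes, by 1.81 points on chromosome 16 to 2.57 points on chromosome 11 outside TSS, and by 2.00 to 3.10 points near TSS. Chromosome 1, the longest, had a share of 70.9% in Control and 73.3% in TGFB1, and chromosome 19, the shortest, had 61.4% and 63.5%. The same contrast with the antagomiR went the other way. TGFB1+miR-9-LOF differed from miR-9-LOF by -1.25 points (-1.29 to -1.20) outside TSS, and was lower in 19 of 19 autosomes, with differences of -2.10 to -1.22 points. The plot of the shares by autosome shows this order, with TGFB1 highest, then Control, miR-9-LOF and TGFB1+miR-9-LOF, on each autosome outside TSS.

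**Figure D2:**
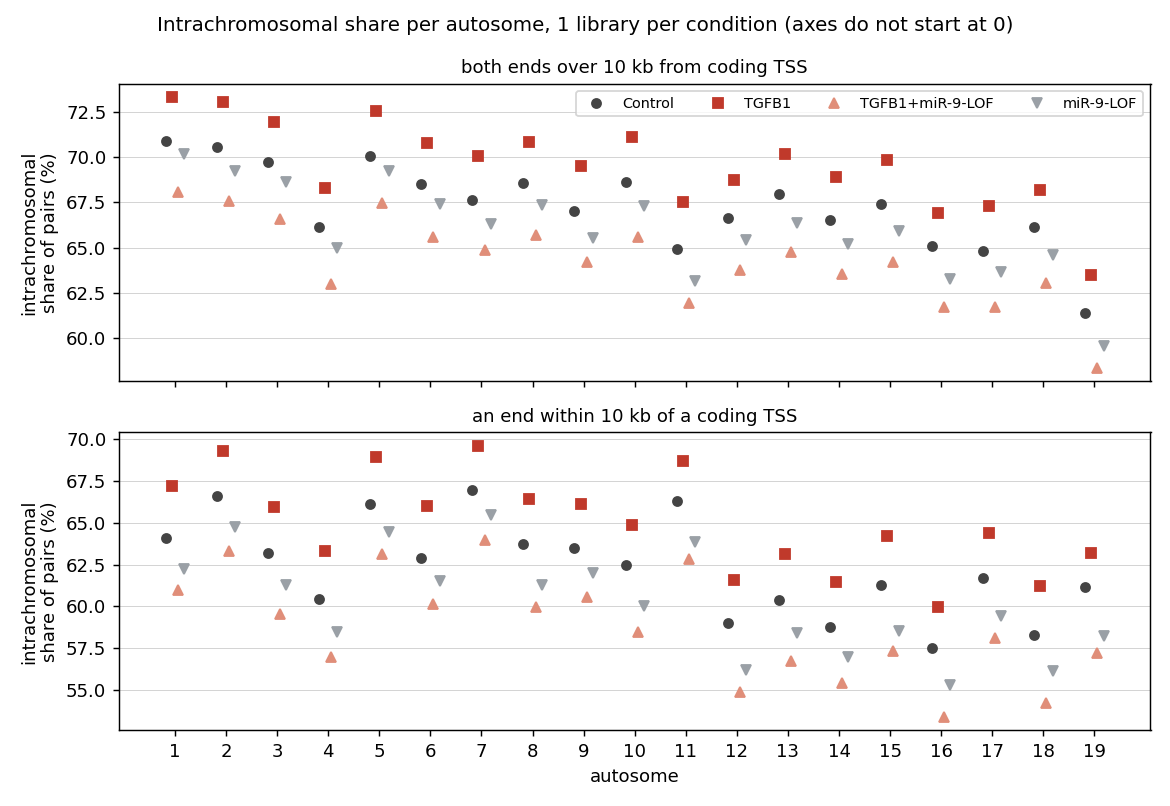
Intrachromosomal share of pairs in percent for each autosome, outside TSS (top) and near TSS (bottom), with 1 point per library. TGFB1 (red squares) lies above Control (dark circles) by 1.81 to 2.57 points on the autosomes outside TSS, and TGFB1+miR-9-LOF (light triangles) lies below miR-9-LOF (grey triangles) on each of them.

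Among the interchromosomal pairs, preferences between particular chromosomes were alike for most pairs. For the 171 pairs of autosomes, the ratio of observed pairs to those expected from the totals of both chromosomes ranged from 0.906 to 1.32 in Control and from 0.913 to 1.38 in TGFB1 outside TSS. The highest ratio was that of chromosomes 1 and 10 in each library, with 1.32 in Control and 1.38 in TGFB1, against 1.33 in miR-9-LOF and 1.31 in TGFB1+miR-9-LOF. The ratios of TGFB1 and Control had a Pearson r of 0.88 over the 171 pairs, which share chromosomes and coverage. Their log2 differences had an SD of 0.029, against a root mean square counting error of 0.030, and in 12 of 171 pairs the interval did not contain 0. Over all pairs the spread of the differences was thus no larger than counting error, and the 12 pairs had differences of both signs. On the log2 scale they included -0.111 (SE 0.038 from counting) for chromosomes 13 and 16, 0.079 (SE 0.028) for 3 and 7, and 0.065 (SE 0.016) for 1 and 10. Near TSS these pairs had 0.071 (SE 0.049), with the opposite sign, 0.0015 (SE 0.030) and 0.055 (SE 0.021) in this order. The largest value near TSS was 0.126 (SE 0.041) for chromosomes 10 and 12, which had -0.021 (SE 0.033) outside TSS.

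Compartments were then derived from the first eigenvector of the contact map of each autosome in bins of 250 kb, outside TSS, signed so that positive bins (A) are those with more coding genes. The eigenvectors of Control and TGFB1 had a Pearson r of 0.959 over 9361 bins, and between 0.933 and 0.980 on single autosomes. These bins share libraries, chromosomes and base composition, and the value is a description. Over the 6 pairs of libraries r lay between 0.959 and 0.973, with TGFB1 and Control the least alike, and TGFB1 was the library with the fewest pairs. GC content, which the eigenvector did not use, followed it with an r of 0.55 to 0.74 in Control and 0.56 to 0.76 in TGFB1 on all autosomes but chromosome 13, where r was 0.27 and 0.32. On chromosome 13 the first eigenvector also followed coding gene density least, with an r of 0.15 in Control and 0.18 in TGFB1, so that A and B are less certain there. Landmark genes of silent and active chromatin differed in their compartment. Of 634 olfactory receptor genes (Olfr) with a value, 98 were in A in Control and 91 in TGFB1, whereas of 75 ribosomal protein genes (Rpl and Rps) 64 and 65 were in A. Of 19257 coding genes, 72.3% were in A in Control and 73.2% in TGFB1.

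The sign of the eigenvector differed between TGFB1 and Control in 574 of 9361 bins (6.13%), of which 321 were B in Control and A in TGFB1 and 253 the reverse. The number was 446 between miR-9-LOF and TGFB1+miR-9-LOF, which share no library with this comparison and had more pairs. It was 522 to 582 for the pairs of libraries that share Control or TGFB1 with this comparison. The bins concerned were close to the border of the compartments, which a choice by differing sign favours. Their absolute eigenvector, averaged over the 2 libraries, had a median of 0.20, against 0.92 over all bins. In 2 bins the eigenvector exceeded 0.5 in size in both libraries with opposite signs, and both lay on chromosome 13. The first, chr13:43500001-43750000, holds the TSS of Mcur1, a regulator of mitochondrial calcium uptake, and Rnf182, a ubiquitin ligase. Its eigenvector was 0.69 in Control and -0.65 in TGFB1, against 0.24 in miR-9-LOF and 0.38 in TGFB1+miR-9-LOF. The second, chr13:80250001-80500000, holds no coding TSS and had 0.75, -0.57, 0.36 and 0.12 in this order. In both bins TGFB1 was the library with a negative value. The score defined below for single bins differed between TGFB1 and Control by -0.42 (-0.88 to 0.032) in the first and -0.56 (-1.08 to -0.041) in the second outside TSS, and by 0.50 (-0.15 to 1.16) and -0.061 (-1.21 to 1.09) near TSS. In the first bin the interval outside TSS contained 0 and the sign near TSS was the opposite, and the doubt about chromosome 13 applies to both.

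The strength of the compartments was measured as the log2 of AA times BB over AB squared, each term being observed over expected pairs between bins at least 2 Mb apart. To keep the definition independent, A and B were taken from the other 2 libraries summed. Outside TSS and within chromosomes, the strength was 1.81 in Control and 1.78 in TGFB1, against 1.88 in miR-9-LOF and 1.82 in TGFB1+miR-9-LOF. TGFB1 differed from Control by -0.028 (-0.043 to -0.012), and by -0.053 (-0.068 to -0.037) in bins of 100 kb. On single autosomes TGFB1 was lower in 14 of 19 and higher in 5, and the interval lay below 0 on chromosome 13 (-0.11) and contained 0 on the others. The antagomiR pair differed by -0.064 (-0.077 to -0.050). Near TSS the sign was the opposite, with a strength of 1.44 in Control and 1.49 in TGFB1, a difference of 0.047 (0.025 to 0.069), which was positive in 16 of 19 autosomes. With a window of 25 kb around the TSS it was 0.0095 (-0.0098 to 0.029), an interval that contained 0. With the window of 10 kb, TGFB1+miR-9-LOF differed from miR-9-LOF near TSS by -0.065 (-0.085 to -0.044), and that pair was not compared with the window of 25 kb.

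Between chromosomes the TGFB1 library had the stronger compartments. Outside TSS, the strength between chromosomes was 1.21 in Control and 1.30 in TGFB1, against 1.31 in miR-9-LOF and 1.15 in TGFB1+miR-9-LOF. The difference between TGFB1 and Control was 0.093 (0.075 to 0.11). Near TSS, it was 0.83, 1.02, 1.04 and 0.87 in this order, and the difference was 0.19 (0.16 to 0.21). Control and TGFB1+miR-9-LOF were the lower pair in both classes, and TGFB1 and miR-9-LOF the higher. With the antagomiR, the sign of the TGFB1 contrast was the opposite, with -0.16 (-0.18 to -0.15) outside TSS and -0.17 (-0.20 to -0.15) near TSS. The 2 antagomiR libraries defined A and B themselves, here as for the pairs within chromosomes, and their strengths were not computed with another definition. Outside TSS the contacts between A and B of different chromosomes were below expectation by a log2 ratio of -0.32 in Control and -0.35 in TGFB1, those within A above it by 0.17 and 0.19, and those within B by 0.40 and 0.42. The share of interchromosomal pairs moved opposite to the strength between chromosomes within each contrast. It was lower in TGFB1 than in Control and lower in miR-9-LOF than in TGFB1+miR-9-LOF, and its part in the result was not tested.

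**Figure D3:**
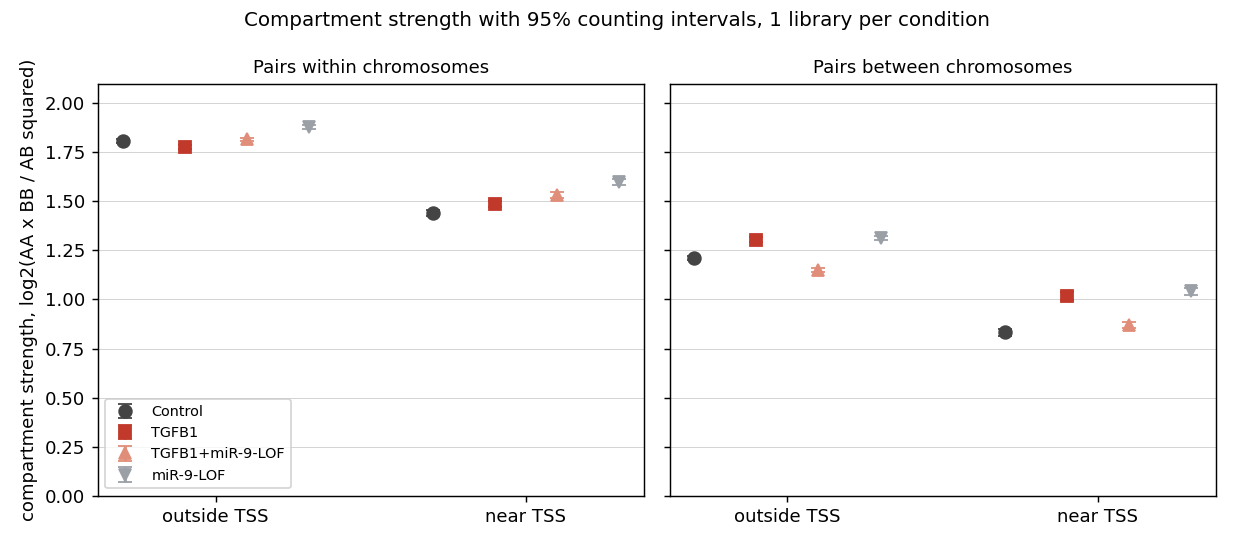
Compartment strength, as log2 of AA times BB over AB squared, for pairs within chromosomes (left) and between chromosomes (right), outside and near TSS, with 1 point per library and 95% counting intervals that are mostly smaller than the points. Between chromosomes TGFB1 lies above Control (1.30 against 1.21 outside TSS), and TGFB1+miR-9-LOF lies below miR-9-LOF.

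A finer view was obtained by dividing the bins into 5 groups of rising eigenvector. Within chromosomes and outside TSS, the difference between TGFB1 and Control was largest for contacts of the most B-like with the most A-like group, where the log2 ratio of observed to expected pairs was -1.44 in Control and -1.40 in TGFB1, a difference of 0.036 (0.015 to 0.058). Contacts within the most A-like group had a log2 ratio of 0.85 in Control and 0.83 in TGFB1, a difference of -0.016 (-0.029 to -0.0034). Contacts within the most B-like group had 0.72 in both, with a difference of -0.0015 (-0.015 to 0.012). Of the 15 combinations of groups, the interval lay above 0 in 3 and below 0 in 2.

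For single bins, a compartment score was defined as the log2 of observed over expected pairs with A bins minus that with B bins, and 8229 bins had at least 30 pairs with each in every library. The score was at least 0.5 higher in TGFB1 in 398 bins (4.84%) and at least 0.5 lower in 383 bins (4.65%). Counting error alone gives 628.0 bins past 0.5 at the depth of these bins, against 781 observed. The differences had an SD of 0.30, against a root mean square counting error of 0.28, and their median was -0.0027. In the antagomiR pair, which had more pairs, 390 bins were past 0.5 where counting error alone gives 362.5. Over the 8229 bins the 2 contrasts, which share no library, had an r of -0.0031, and of the 781 bins past 0.5 the sign was the same in 378 (48.4%). Of these 781 bins, 29 were past 0.5 with the same sign in the antagomiR pair and 26 with the opposite sign. The difference outside TSS and that near TSS had an r of 0.10 over 3478 bins with at least 30 pairs in both, which share libraries. Most of the bins past 0.5 were thus matched in number by counting error, as the plot of the differences shows. By compartment, the median score of A bins was 0.88 in Control and 0.85 in TGFB1, and that of B bins was -1.02 and -0.99.

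**Figure D4:**
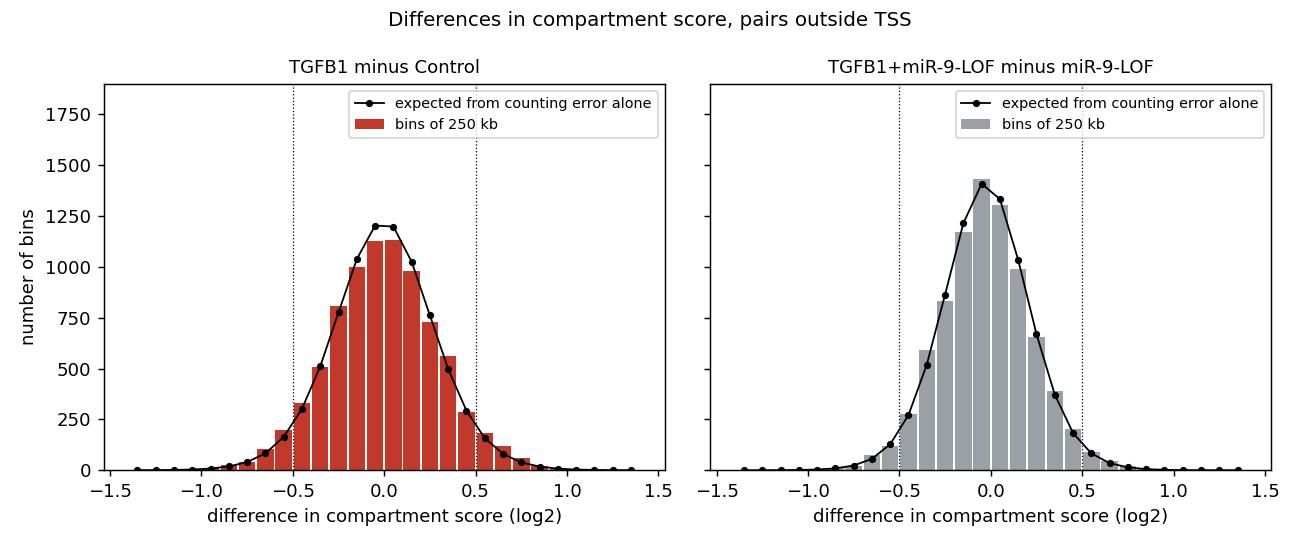
Number of 250-kb bins (bars) by the difference in compartment score on the log2 scale, for TGFB1 minus Control (left) and TGFB1+miR-9-LOF minus miR-9-LOF (right), with the number expected from counting error alone (black line) and the limits of 0.5 (dotted). In TGFB1 minus Control, 781 bins lie past 0.5 where 628.0 are expected from counting error.

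The bins with the largest differences, chosen by size among those with the same sign near TSS, are given for orientation, since they are the extremes of 8229 values. The largest rise was in chr1:22250001-22500000, which holds no coding TSS, where the score was -1.87 in Control and -0.57 in TGFB1, against -1.08 in miR-9-LOF and -1.27 in TGFB1+miR-9-LOF, a difference of 1.30 (0.76 to 1.84) between TGFB1 and Control. Control was the lowest and TGFB1 the highest of the 4 libraries there. In chr13:60750001-61000000, the score was -0.68 in Control and 0.34 in TGFB1, against -0.66 in miR-9-LOF and -0.34 in TGFB1+miR-9-LOF. The difference between TGFB1 and Control was 1.02 (0.27 to 1.77). This bin holds Ctla2a, an inhibitor of cathepsin-like proteases, with the cathepsin family gene Ctsll3 and BC051665. Its eigenvector was negative in both, at -0.78 in Control and -0.22 in TGFB1, and the doubt about A and B on chromosome 13 applies here too. The bin chr4:62500001-62750000 holds Alad, an enzyme of haem synthesis, the DNA polymerase epsilon subunit gene Pole3 and 4933430I17Rik. Its score was -1.42 in Control and -0.40 in TGFB1, against -0.46 in miR-9-LOF and -1.08 in TGFB1+miR-9-LOF. In this bin the difference between TGFB1 and Control was 1.02 (0.36 to 1.67). There the miR-9-LOF library was close to TGFB1, and the eigenvector differed less, with -1.12 in Control and -0.99 in TGFB1. In 2 further bins without coding TSS, chr16:12750001-13000000 and a bin on chromosome 18, the score was higher in TGFB1 by 1.10 (0.44 to 1.76) and 1.12 (0.47 to 1.77).

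The largest fall was in the bin of the Wnt receptor gene Fzd8 on chromosome 18, with scores of 1.06 in Control and -0.22 in TGFB1, against 0.68 in miR-9-LOF and 0.84 in TGFB1+miR-9-LOF. The difference was -1.28 (-2.09 to -0.46) outside TSS and -1.40 (-2.75 to -0.057) near TSS, and TGFB1 was the library with a negative score. This was the only one of the 10 bins whose interval near TSS did not contain 0, and the smallest of the 10 differences near TSS was 0.037 (-0.45 to 0.52) in the bin of Alad, next to 0.038 (-1.70 to 1.78) in the bin on chromosome 18 that rose. Of 268 bins past 0.5 with at least 30 pairs near TSS as well, 144 (53.7%) had the same sign there, against 53.2% of all 3478 such bins, so that the same sign near TSS was about as frequent in both. The bin of Rbbp8, which acts in the resection of DNA breaks, also on chromosome 18, had 1.60 in Control and 0.43 in TGFB1, against 1.29 in miR-9-LOF and 0.95 in TGFB1+miR-9-LOF. In chr16:86000001-86250000, without coding TSS, the score was 2.22 in Control and 1.15 in TGFB1, against 1.69 in miR-9-LOF and 1.78 in TGFB1+miR-9-LOF. The bin chr16:35250001-35500000 holds Pdia5, a protein disulphide isomerase of the endoplasmic reticulum, and Sec22a, a protein of vesicle traffic, and had 2.01 in Control and 1.03 in TGFB1, against 1.498 in miR-9-LOF and 1.18 in TGFB1+miR-9-LOF. The bin chr12:108250001-108500000 holds Hhipl1, Ccdc85c and Eml1, the last a microtubule-associated protein. Its score was 2.49 in Control and 1.55 in TGFB1, against 1.83 and 1.87. It had 30 pairs with A or with B bins in Control, the fewest that a score allowed. The difference between TGFB1 and Control was -0.94 (-1.69 to -0.18) there and -1.16 (-1.91 to -0.42) in the bin of Rbbp8. It was -1.07 (-1.75 to -0.40) in chr16:86000001-86250000 and -0.98 (-1.69 to -0.27) in the bin of Pdia5. In each of these 5 bins Control was the highest and TGFB1 the lowest of the 4 libraries, which the choice of extremes favours. In the antagomiR pair the interval of the difference contained 0 in 9 of the 10 bins, the bin of Alad being the exception with -0.61 (-1.15 to -0.079). Over all 8229 bins, 5.63% had an interval without 0 in that pair.

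Genes of the TGFB1 response were located in these maps. The 20 early targets of TGFB1 signalling examined had their TSS in A bins in both Control and TGFB1. A difference in compartment was present in 1061 of 19257 coding genes (5.51%), and a count of 0 among 20 genes is near this share. Of the 14 of them with a score, the difference passed 0.5 upward in 1 and downward in 1, the median difference was -0.0032, and over 13367 coding genes with a score 707 (5.29%) were past 0.5 upward and 667 (4.99%) downward, with a median of -0.0077. Pmepa1, a feedback inhibitor of TGFB1 signalling, had a score of 0.89 in Control and 1.43 in TGFB1, a difference of 0.54 (0.13 to 0.95), with 1.33 in miR-9-LOF and 1.24 in TGFB1+miR-9-LOF. Smad7, the inhibitory SMAD, had 2.12 in Control and 1.62 in TGFB1, a difference of -0.51 (-1.10 to 0.086). Ccn2, which encodes connective tissue growth factor, had 0.36 and 0.84, a difference of 0.48 (0.039 to 0.93). In both Pmepa1 and Ccn2 the Control library was the lowest of the 4, and the libraries without TGFB1 did not group together. Junb, the early target with the most pair ends near its TSS (2012 in Control and 1106 in TGFB1), lay in a bin with too few pairs for a score, and its eigenvector was 1.58 in Control and 1.47 in TGFB1.

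Of 14 matrix genes, 11 were in A in Control and 12 in TGFB1, and 0 were past 0.5, where 5.29% of coding genes were past it upward and 4.99% downward. The counts past 0.5 in this list and the next ones rest on 4 to 14 genes with a score. Postn, which encodes periostin, lay at the border with an eigenvector of -0.077 in Control and 0.18 in TGFB1, whereas Tnc (tenascin C) was in B in both, with scores of -1.09 and -0.72. Col6a1 and Col6a2, chains of collagen VI, share a bin with a score of 2.01 in Control and 1.56 in TGFB1, a difference of -0.45 (-1.06 to 0.16). Col5a1, with the most pair ends near its TSS in this group, had 1.78 and 2.02. All 10 contractile genes were in A in both libraries, and of the 5 with a score Actg2, a smooth muscle actin, was past 0.5 with 1.74 in Control and 2.32 in TGFB1, a difference of 0.58 (-0.14 to 1.30). Tagln had 1.08 and 0.82, and Tpm1, a tropomyosin and the gene of this group with the most pair ends near its TSS, 1.78 and 1.52. Of 5 genes that the study follows (Zdhhc5, Ncl, Lzts2, Hdac7 and Ep300), all were in A in both libraries. Lzts2, a leucine zipper protein, had a score of 1.87 in Control and 0.88 in TGFB1, against 1.22 in miR-9-LOF and 0.91 in TGFB1+miR-9-LOF, and its difference of -0.99 (-1.79 to -0.20) was the only one of the 4 scored genes past 0.5. Hdac7, a histone deacetylase, had 1.20 and 1.44, and Zdhhc5, a palmitoyltransferase, 1.60 and 1.41, both with intervals of the difference that contained 0. Of the early targets, matrix genes, contractile genes and genes that the study follows, those outside A in Control were Tnc, Col1a2 and Postn, beside a share of 72.3% in A over all coding genes.

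Insulation was measured in bins of 25 kb as the log2 of observed over expected pairs that cross a bin within 500 kb on either side, so that a low score marks a boundary. There were 2349 boundaries, defined in the other 2 libraries as minima at least 0.3 below both flanks. Only boundaries with at least 30 crossing pairs in every library were kept. The median number of crossing pairs was 139 in Control and 112 in TGFB1, and the part of this filter in the differences was not tested. The insulation score of TGFB1 and Control had an r of 0.938 over 78796 bins, against 0.941 to 0.953 for the pairs of libraries without Control and 0.947 to 0.948 for Control with the antagomiR libraries, and neighbouring bins share pairs. The core of the CTCF motif, here the letters AGGGGGCGC on either strand of GRCm38, was present within 25 kb of 444 of 2349 boundary bins (18.9%), against 11.6% of all 79027 bins. A coding TSS lay in the same window in 54.4% of boundaries and 28.8% of all bins. The stretches below are cores at the 4 deepest boundaries with such a match, with 1 stretch for each. Depth was taken from the 2 antagomiR libraries summed, where, of the boundaries with a match, pairs crossed these least relative to expectation. The boundary beside Aacs had 2 matches, of which 1 is shown. Each has 27 bases in the 5′ to 3′ direction of the strand given, with the core in capitals.
Aacs and Tmem132b, minus strand, chr5:125525675-125525701: taacagaggccagaAGGGGGCGCcaga
Mbtd1 and Utp18, plus strand, chr11:93886329-93886355: gctcgcggggggggAGGGGGCGCcgcg
Rrp15, plus strand, chr1:186770839-186770865: ccacagaggtcagaAGGGGGCGCtata
Bud13 and 4931429L15Rik, minus strand, chr9:46327885-46327911: cacgcccatgctccAGGGGGCGCtcga

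These 4 boundaries lay beside genes of ketone body use (Aacs), ribosome biogenesis (Utp18 and Rrp15), chromatin binding (Mbtd1) and splicing (Bud13). At the first, beside Aacs, the insulation score was -2.37 in Control and -2.47 in TGFB1, against -2.64 in miR-9-LOF and -2.46 in TGFB1+miR-9-LOF, from 49 to 63 crossing pairs. At the second it was -1.89, -1.90, -2.34 and -2.09, at the third -1.53, -1.82, -1.85 and -1.84, and at the fourth -1.92, -1.65, -1.90 and -1.78. The difference between TGFB1 and Control ranged from -0.28 to 0.26 with both signs, and each of the 4 intervals contained 0. Over all boundaries, 3.11% had an interval without 0. A match of these letters is not evidence that CTCF was bound.

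Over all 2349 boundaries, the mean insulation score was -0.67 in Control and -0.65 in TGFB1, against -0.70 in miR-9-LOF and -0.69 in TGFB1+miR-9-LOF. Boundaries were less deep in TGFB1 than in Control by 0.014 (0.0058 to 0.022) on average. With a TSS window of 25 kb, 569 boundaries had a value and the mean difference was 0.0074 (-0.0094 to 0.024). Over the 2349 boundaries the single differences had an SD of 0.18, against a root mean square counting error of 0.19 at a boundary. In the antagomiR pair the sign was the same, as miR-9-LOF minus TGFB1+miR-9-LOF was -0.0053, with an interval (-0.013 to 0.0020) that contained 0. Both antagomiR libraries had lower scores than Control, by -0.026 (-0.033 to -0.018) in TGFB1+miR-9-LOF and -0.031 (-0.038 to -0.024) in miR-9-LOF, and these 2 libraries defined the boundaries. The difference between TGFB1 and Control was positive in 15 of 19 autosomes, with the interval above 0 in 2. It was 0.0075 (-0.010 to 0.025) at boundaries with the core of the CTCF motif and 0.015 (0.0064 to 0.024) at those without, and 0.016 (0.0046 to 0.027) and 0.011 (0.00017 to 0.023) at boundaries with and without a coding TSS.

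**Figure D5:**
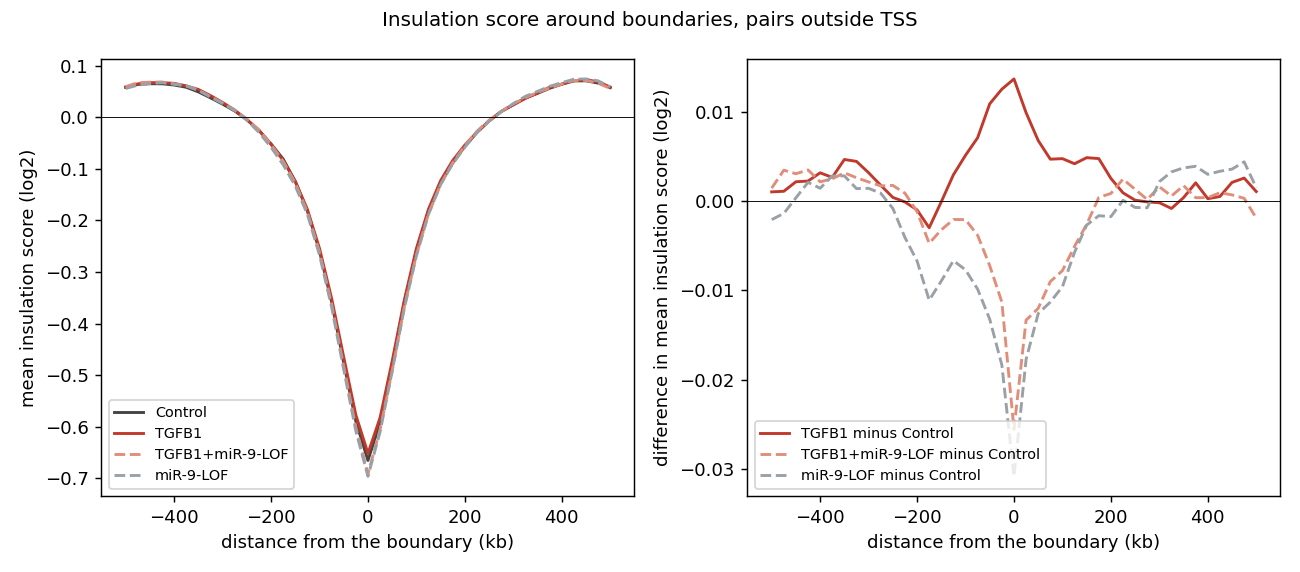
Left, mean insulation score on the log2 scale against the distance from the boundary in kb over 2349 boundaries, for each library. Right, the mean of each library minus that of Control, where TGFB1 lies 0.014 above Control at the boundary and the antagomiR libraries differ from it by -0.026 and -0.031.

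Single boundaries differed by at least 0.5 between TGFB1 and Control in few cases. The score was at least 0.5 higher in TGFB1, that is less insulated, at 16 boundaries (0.681%) and at least 0.5 lower at 8 (0.341%). With windows of 250 kb on either side in place of 500 kb, 78 of 2506 boundaries were past 0.5 in either direction. The number past 0.5 was 24 here and 18 in the antagomiR pair, which shares no library with this comparison and had more pairs. It was between 17 and 34 for the pairs of libraries that share Control or TGFB1 with this comparison. The largest loss of insulation was at chr14:106500001-106525000, with scores of -1.72 in Control and -0.80 in TGFB1, against -0.97 in miR-9-LOF and -1.25 in TGFB1+miR-9-LOF from 41, 54, 75 and 59 crossing pairs, and no coding TSS in the window. The next was at chr16:96150001-96175000, beside Wrb, a receptor for tail-anchored proteins, the nucleosome-binding protein gene Hmgn1 and Lca5l, with -1.87 in Control and -0.98 in TGFB1, against -1.70 in miR-9-LOF and -1.42 in TGFB1+miR-9-LOF. The third, at chr12:40825001-40850000 and without coding TSS, had -1.36 in Control and -0.62 in TGFB1, against -1.495 in miR-9-LOF and -1.07 in TGFB1+miR-9-LOF. The difference between TGFB1 and Control was 0.92 (0.33 to 1.51), 0.90 (0.26 to 1.53) and 0.74 (0.24 to 1.23) at these boundaries in this order. The boundary beside Wrb had 33 crossing pairs in Control and 50 in TGFB1. At the first of these losses the miR-9-LOF library lay nearer to TGFB1 than to Control, and at the others nearer to Control.

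The largest gain of insulation was at chr7:133650001-133675000, beside Edrf1, a regulator of erythroid differentiation, and the metalloproteinase gene Mmp21, with -1.83 in Control and -2.51 in TGFB1, against -2.07 in miR-9-LOF and -1.93 in TGFB1+miR-9-LOF. The second, at chr4:105125001-105150000, lay beside Plpp3, a lipid phosphatase, and Prkaa2, a catalytic subunit of AMP-activated protein kinase, and had -1.07 in Control and -1.72 in TGFB1, against -1.17 in miR-9-LOF and -1.18 in TGFB1+miR-9-LOF. The third, at chr1:157550001-157575000, had no coding TSS in the window and -0.98 in Control and -1.56 in TGFB1, against -1.63 in miR-9-LOF and -1.39 in TGFB1+miR-9-LOF. At these gains the difference between TGFB1 and Control was -0.69 (-1.31 to -0.059), -0.64 (-1.14 to -0.15) and -0.58 (-1.02 to -0.15) in this order. The boundary beside Edrf1 had 56 crossing pairs in Control and 32 in TGFB1. None of these 6 boundaries held the core of the CTCF motif in its window, and 18.9% of all boundaries held it. In the antagomiR pair the interval of the difference contained 0 at each of the 6. Over all boundaries, 2.85% had an interval without 0 in that pair, so that both counts are near the shares over all boundaries.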

How the data were processed

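H3K4me3 HiChIP-seq pairs of MLg cells were analysed in 4 libraries, 1 per condition, grouped by their labels. The authors aligned the reads to mm10 with HiC-Pro at default settings, and the deposited lists hold positions and strands of valid pairs. The mapping quality score of each end, deposited by the authors, served as a filter of at least 30. Depth was 9349493 to 13148144 autosomal pairs after this filter.

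Pairs were counted with Python 3.11.15, numpy 2.4.6, pandas 2.3.3 and scipy 1.17.1 and plotted with matplotlib 3.10.9. TSS came from GENCODE and sequence from RefSeq, both on GRCm38, the assembly of mm10. Expected pairs were the product of bin coverages and a distance factor, fitted to the observed margins, between chromosomes without the distance factor. Bins with under 10% of the median coverage were left out. Intervals (95%) were Poisson or binomial. Intrachromosomal pairs under 20 kb apart and chromosome X were not used here.

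Members and gene lists were chosen with earlier results of these data known. Named were the 5 bins with the largest rise and the 5 with the largest fall in compartment score past 0.5 with the same sign near TSS, the 3 boundaries with the largest gain and the 3 with the largest loss, each with up to 3 coding genes with the most pair ends, and from each short list the 3 members with the largest difference and that with the most pair ends. The bins of opposite sign on chromosome 13 and the matrix gene Postn were named after their values were seen, and so were the deepest boundaries. Simulated data were used to test the eigenvector, compartment strength within chromosomes, single-bin scores, insulation and the log2 ratio of long to short counts. The curve by distance, intrachromosomal share, pairs of autosomes, strength between chromosomes and the 5 groups of bins were not so tested. Alternatives were other mapping quality, TSS windows, bin sizes, distances, thresholds, depths and definitions of compartments.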

Additional observations from a re-analysis of the deposited data

Results flagged for a closer look

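Several differences between TGFB1 and Control had the opposite sign in TGFB1+miR-9-LOF against miR-9-LOF, with both intervals beyond 0. With 1 library per condition the difference between these contrasts was not tested. The 2 antagomiR libraries also defined A and B, on which their compartment strengths below rest. The intrachromosomal share was higher in TGFB1 than in Control by 1.65 points outside TSS and 2.00 points near TSS, and differed by -1.25 and -1.08 points with the antagomiR. The share of pairs 200 kb to 2 Mb apart outside TSS had a log2 ratio of 0.031 between TGFB1 and Control and of -0.011 with the antagomiR. The share of pairs 20 to 200 kb apart near TSS had log2 ratios of -0.0081 and 0.023. Compartment strength within chromosomes near TSS differed by 0.047 between TGFB1 and Control and by -0.065 with the antagomiR. Compartment strength between chromosomes differed by 0.093 and -0.16 outside TSS, and by 0.19 and -0.17 near TSS. The share of pair ends within 10 kb of a coding TSS was 26.7% in Control and 23.5% in TGFB1, against 21.3% in miR-9-LOF and 20.6% in TGFB1+miR-9-LOF, and its part in these opposite signs was not tested.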

How the results depend on the processing

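Of 58 alternatives computed, 31 concerned differences between TGFB1 and Control, and 31 of these kept their sign. With a TSS window of 25 kb, the distance decay near TSS was -0.032, the intrachromosomal share outside TSS 1.52 points, the eigenvector r 0.929, the compartment strength within chromosomes near TSS 0.0095 and the boundaries past 0.5 numbered 15 of 569, against 24 of 2349. With no minimum of mapping quality the eigenvector r was 0.962, and with all libraries thinned to the same number of pairs it was 0.952. Bins of 500 kb gave an r of 0.974, 268 of 4712 bins of different sign and 164 of 4589 bins past 0.5, and bins of 100 kb gave 0.915, 1904 of 23152 and 1899 of 9831, with a compartment strength of -0.053. The numbers of bins and boundaries tested differ between these settings. Long pairs taken from 10 Mb on gave a distance decay of -0.052 outside TSS, and intrachromosomal pairs at any distance a share difference of 1.91 points near TSS. A difference of at least 1 was reached by 15 bins and 0 boundaries, and windows of 250 kb gave 78 of 2506 boundaries past 0.5. The causes of these shifts were not tested. Leaving out chromosome 13, chosen after seeing the data, gave a compartment strength of -0.024, 532 bins of different sign and 741 bins past 0.5. As 0 pairs of autosomes exceeded 1.5 times the expected pairs, the alternative without such pairs gave no value.

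No paired analysis was possible because each condition had 1 library and the labels give no replicate shared between conditions. Leaving out a library was likewise not an option. Depth limits the single bins, boundaries and pairs of autosomes, since counting error there was about as large as the spread of the differences. The depth of TGFB1 was the lowest of the 4 libraries.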

Other observations

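The first eigenvectors of TGFB1 and Control near TSS had an r of 0.88 over 9361 bins, and 0.53 on the autosome where they were least alike, and the sign differed in 1256 bins (13.4%). On chromosome 2 this eigenvector followed GC content with an r of -0.26 in Control and -0.36 in TGFB1, so that it does not mark A and B on every autosome near TSS. With A and B defined outside TSS, contacts of active with silent chromatin were compared all the same. Near TSS, the largest fall among 15 combinations was for contacts of the most B-like of the 5 groups of bins with the next to most A-like group. Their log2 ratio of observed to expected pairs was -0.31 in Control and -0.36 in TGFB1, a difference of -0.047 (-0.074 to -0.020). The largest rise was for contacts within the most A-like group, with 0.39 and 0.40, a difference of 0.016 (0.0046 to 0.027). Of the 15 combinations near TSS, the interval lay above 0 in 2 and below 0 in 4. Outside TSS the difference within the most A-like group was -0.016.

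Of the 75 ribosomal protein genes with an eigenvector, 46 had a compartment score, with a median of 1.15 in Control and 1.06 in TGFB1. Their median difference was -0.11, against -0.0077 over all coding genes with a score, -0.026 over all A bins and -0.065 over the most A-like of the 5 groups of bins, and 1 of them was past 0.5 upward and 4 downward, where 5.29% and 4.99% of all coding genes were. The interval of the difference did not contain 0 for 2 of the 46 ribosomal protein genes, against 842 of 13367 coding genes with a score. For 220 olfactory receptor genes in 65 bins the median difference was 0.0082. Each of these values compares single libraries.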
